A study of Homo sapiens with 8 samples.

Results

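The keratin genes are the 45 genes on this array whose symbol is KRT followed by a number and at most 1 letter, out of 17491 genes with a probe set and a symbol. Each of the 45 had 1 probe set, so no choice between probe sets was needed. They comprised 14 type I epithelial keratins, 10 type I hair keratins, 18 type II epithelial keratins and 3 type II hair keratins, with the keratins of the hair root sheaths counted as epithelial. KRT6A, KRT6B, KRT12, KRT15, KRT17, KRT20, KRT34, KRT81, KRT82 and KRT86 were not analysed here. Expression was read on 8 human Affymetrix arrays of metastatic lymph nodes from BALB/c nude mice with subcutaneous SkMel147 tumours, a human skin melanoma line, 4 from mice on vehicle and 4 from mice on doxycycline. Doxycycline was given in drinking water from a tumour volume of about 750 mm3 to turn on Omomyc, a dominant-negative form of MYC, in the tumour cells, and nodes were taken 2 days after treatment. The tumours came from 1 cell line, whole nodes with host mouse tissue were homogenized, the labels give no doxycycline dose, and Omomyc itself was not measured here.

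Keratins are the intermediate filament proteins of epithelial cells. A type I and a type II keratin pair to form each filament, and the pair used depends on the tissue: KRT8 and KRT18 in simple epithelia, KRT5 and KRT14 in the basal epidermis, KRT1 and KRT10 in the layers above it, and the hair keratins in the hair shaft. Melanocytes and lymphocytes carry vimentin filaments in the main, although some melanomas make KRT8 and KRT18, and lymph node stroma contains cells that make simple epithelium keratins. The nude mouse lacks a working Foxn1, a transcription factor that drives hair keratin genes.

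The genes lie in a pair of clusters. All 21 type II members were on chromosome 12 and 23 of the 24 type I members on chromosome 17, in the RefSeq gene table of GRCh38.p14. The exception was KRT18, a type I gene that sits next to its type II partner KRT8 on chromosome 12. A 300-base window around the gene start was found for 30 of the 45 genes in the RefSeq promoter table (34 windows, since some genes have several starts). The letters TATAAA, the core of a TATA box, occurred on the gene's strand in 18 of these 34 windows (52.9%), against 7.33% of all 35116 windows in the table. On both strands the shares were 55.9% and 11.5%. Counted only where they began 25 to 35 bases before the gene start, a range chosen after the positions were seen, they were in 15 windows of 15 genes (44.1%), against 2.17% of all windows. These 15 comprised 12 of 17 type I and 3 of 13 type II genes. The letters CACGTG, the E-box bound by MYC and MAX and by Omomyc dimers, read the same on both strands and occurred in 3 keratin windows (8.82%), against 7.26% of all windows. These 3 are overlapping windows of KRT40 that hold 1 and the same site, so 1 of 30 keratin genes (3.33%) had it. Matches of the 2 motifs cannot overlap each other, given their letters. The type I genes KRT14, KRT16, KRT18 and KRT19 were among those without a window, so their starts were not examined. Most of the 17 type I genes with a window share the TATA letters. The 50 bases before the gene start are therefore shown for 8 members that hold them. All are from RefSeq on GRCh38.p14, minus strand, written 5′ to 3′ along the gene, with TATAAA in capitals.
KRT10 (chr17:40822615-40822664): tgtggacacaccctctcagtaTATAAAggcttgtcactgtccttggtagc
KRT25 (chr17:40755332-40755381): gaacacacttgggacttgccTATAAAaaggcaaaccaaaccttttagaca
KRT31 (chr17:41397609-41397658): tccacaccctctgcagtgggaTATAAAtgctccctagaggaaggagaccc
KRT35 (chr17:41481152-41481201): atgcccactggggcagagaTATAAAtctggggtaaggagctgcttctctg
KRT37 (chr17:41424586-41424635): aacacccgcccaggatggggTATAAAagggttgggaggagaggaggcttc
KRT38 (chr17:41440984-41441033): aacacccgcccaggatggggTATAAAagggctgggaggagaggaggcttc
KRT71 (chr12:52553146-52553195): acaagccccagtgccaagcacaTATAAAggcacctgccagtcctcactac
KRT76 (chr12:52777346-52777395): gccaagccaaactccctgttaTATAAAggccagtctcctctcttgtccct

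KRT37 and KRT38, neighbouring hair keratin genes, matched at 49 of these 50 positions and at 236 of the 300 positions of the full window. The same stretch is shown for KRT8, the simple epithelium keratin, for KRT5, the basal epidermis keratin, and for KRT84 and KRT74, the members with the smallest p in the group comparison, none of which holds TATAAA on the gene's strand here. The KRT8 stretch belongs to the only KRT8 start in the promoter table, and any other start of that gene was not examined. Only exact matches were counted. The stretches of KRT5, KRT84 and KRT74 hold the similar letters ataaaa, so a TATA box of other spelling is not excluded.
KRT8 (chr12:52926470-52926519): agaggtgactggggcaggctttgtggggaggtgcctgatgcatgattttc
KRT5 (chr12:52520395-52520444): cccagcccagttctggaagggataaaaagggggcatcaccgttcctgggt
KRT84 (chr12:52385653-52385702): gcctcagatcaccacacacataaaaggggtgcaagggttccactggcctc
KRT74 (chr12:52573844-52573893): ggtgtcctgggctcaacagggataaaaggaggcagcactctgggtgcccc

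Values are log2 expression per probe set. Probe sets differ in brightness, so their levels do not show which gene has more RNA, and mouse transcripts may add to what the human probes read, to a degree that was not measured. In 39 of the 45 the highest and the lowest array were less than 1 log2 unit apart, which held for 87.1% of all genes. Of the melanocyte markers, MLANA, a melanosome protein, was at 4.60 in vehicle replicate 1 and between 5.63 and 6.21 on the other 7 arrays. SOX10, the neural crest transcription factor, was between 5.52 and 5.92 on all 8. Vehicle replicate 1 stood apart over all genes, with correlations of 0.930 to 0.951 to the other arrays. Those correlated at 0.972 to 0.983 with each other. Direction counts and several keratin differences are therefore given with and without vehicle replicate 1.

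The groups were compared to see which genes change in the nodes once doxycycline is given to switch on Omomyc. The samples include no doxycycline arrays of tumours without Omomyc, so effects of the drug itself and of Omomyc cannot be told apart. No keratin gene passed an adjusted p of 0.05 (limma, Benjamini-Hochberg over all genes), nor did any other gene, so the background share was 0%. The smallest adjusted p was 0.987 among the keratins and over all genes. At an unadjusted p under 0.05 there were 3 keratins higher with doxycycline (KRT84, KRT74 and KRT10), or 6.67% of the 45, against 2.49% of all genes, and 0 lower, against 1.31%. Without vehicle replicate 1 there were 0 higher, against 2.66% of all genes, and 1 lower (KRT38), against 2.25%. Leaving out vehicle replicate 4 gave a count of 0, and leaving out doxycycline replicate 1 or 2 gave 1. Differences of the 45 ranged from -0.32 for KRT19 to 0.58 for KRT84, with 28 above 0 (62.2%, against 55.5% of all genes) and 17 below. Without vehicle replicate 1 the counts turned to 19 above (42.2%, against 50.8% of all genes) and 26 below. The median of the 45 was 0.04, against 0.02 over all genes, and it was -0.03 without that array. The median standard error of a keratin's difference was 0.15 log2 units. A p that misses the threshold does not show that the groups are alike.

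**Figure D1:**
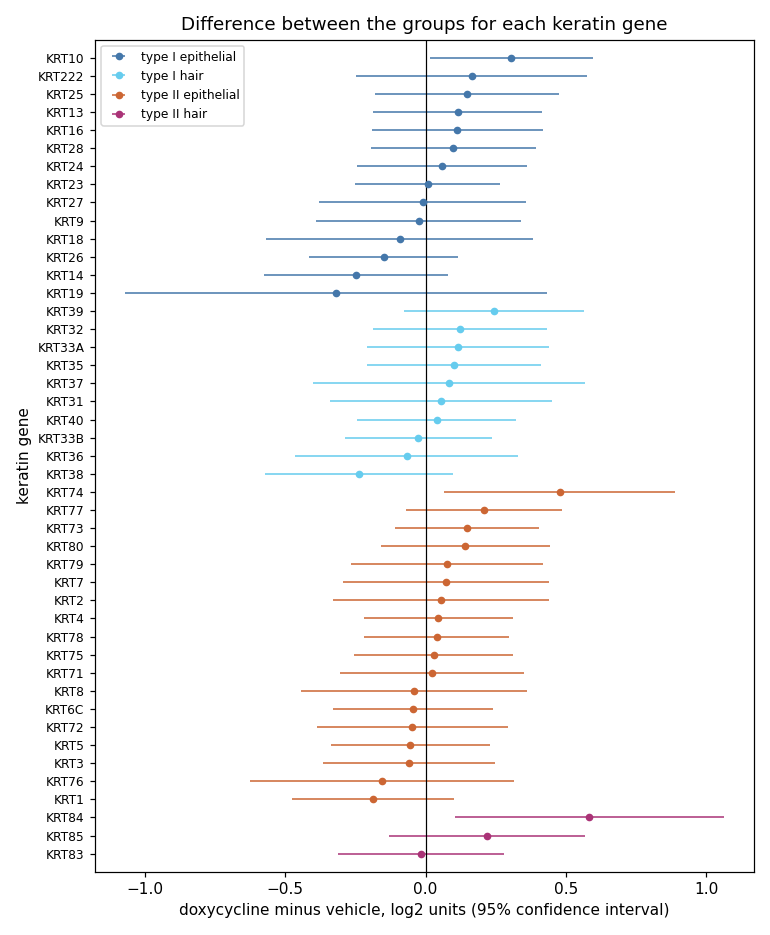
Difference between doxycycline and vehicle for each of the 45 keratin genes (x axis, log2 units, with limma's unadjusted 95% confidence interval), grouped and coloured by class. The intervals of KRT84, KRT74 and KRT10 lie above 0 and those of the other 42 genes include 0.

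KRT84, a type II hair keratin known from the tongue, was at 3.49, 4.34, 4.26 and 3.85 in vehicle replicates 1 to 4 and at 5.12, 4.31, 4.53 and 4.31 in doxycycline replicates 1 to 4. The groups overlapped, since vehicle replicate 2 lay within the doxycycline range, and the ends of the scale were vehicle replicate 1 and doxycycline replicate 1. The difference was 0.58 ± 0.22 (SE; 95% interval 0.10 to 1.06; limma adjusted p = 0.987), and it was 0.42 without vehicle replicate 1. KRT85, a type II keratin of the hair matrix and cortex, was at 4.28, 4.73, 4.89 and 4.74 with vehicle and at 5.07, 4.71, 4.67 and 5.07 with doxycycline. KRT83, a keratin of the hair cortex with near-identical relatives that share its sequence, ranged from 4.27 to 4.76 with vehicle and from 4.43 to 4.56 with doxycycline. Thus 2 of the 3 type II hair keratins had a difference above 0, with and without vehicle replicate 1, and the lowest array was vehicle replicate 1 for KRT84 and KRT85 and vehicle replicate 4 for KRT83.

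KRT74, a type II keratin of the inner root sheath, was at 4.19, 4.54, 4.78 and 4.13 with vehicle and at 5.19, 5.14, 4.66 and 4.55 with doxycycline. Doxycycline replicates 1 and 2 were above every vehicle array, whereas replicates 3 and 4 lay within the vehicle range. The difference was 0.48 ± 0.19 (SE; limma adjusted p = 0.987). Of the 5 type II keratins of the root sheaths, 4 had a difference above 0, and the other 3 of those 4, KRT71, KRT73 and KRT75, lay between 0.02 and 0.15. Without vehicle replicate 1 the count was 2 of 5, KRT74 at 0.40 and KRT73 at 0.13. KRT71, the main type II inner root sheath keratin, ranged from 5.78 to 6.25 with vehicle and from 5.71 to 6.25 with doxycycline. Its type I partner KRT25 ranged from 4.75 to 5.16 and from 4.94 to 5.47.

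Among the keratins of the upper epidermis, KRT10, the type I keratin of differentiating keratinocytes, was at 3.75, 3.89, 3.80 and 3.67 with vehicle and at 3.79, 4.25, 4.07 and 4.22 with doxycycline. Only doxycycline replicate 1 lay within the vehicle range. The difference was 0.30 ± 0.13 (SE; limma adjusted p = 0.987). Its partner KRT1 went the other way, at 4.02, 4.17, 4.32 and 4.49 with vehicle and at 4.05, 3.98, 4.21 and 4.00 with doxycycline. The KRT1 difference was -0.19 ± 0.13 (SE), -0.11 without vehicle replicate 4 and -0.26 without vehicle replicate 1.

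KRT77, a type II keratin of the upper epidermis and sweat ducts, was the only keratin whose groups did not overlap. It was at 5.91, 6.30, 6.34 and 6.19 with vehicle and at 6.38, 6.46, 6.36 and 6.38 with doxycycline, and vehicle replicate 3 lay just below the lowest doxycycline array. The difference was 0.21 ± 0.13 (SE; limma adjusted p = 0.987) and 0.12 without vehicle replicate 1. That is 2.22% of the keratins with doxycycline higher, against 1.76% of all genes, and 0 with doxycycline lower, against 0.863%. Without vehicle replicate 1, KRT77 was still separate, which is 1 keratin against 3% of all genes. In that setting KRT5, KRT37 and KRT38 were separate with doxycycline lower, or 6.67% of the keratins against 2.67% of all genes.

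Other keratins of the stratified epithelia were as follows. KRT14, the basal type I keratin, was at 5.30, 5.75, 5.25 and 5.32 with vehicle and at 5.40, 4.98, 5.02 and 5.22 with doxycycline. The KRT14 difference was -0.25 ± 0.15 (SE), -0.13 without vehicle replicate 2, the highest array, and -0.28 without vehicle replicate 1. KRT5, its partner, was at 6.82, 7.18, 7.16 and 7.21 with vehicle and at 7.08, 7.09, 6.87 and 7.10 with doxycycline. Vehicle replicate 1 was the lowest of the 8, and the other 3 vehicle arrays were above all 4 doxycycline arrays. KRT16, the type I keratin of wounded epidermis, averaged 7.35 ± 0.19 on the vehicle arrays and 7.47 ± 0.18 on the doxycycline arrays (SD, n = 4 each). KRT6C, which shares most of its sequence with the other KRT6 genes and so may not be read alone, averaged 5.23 ± 0.04 and 5.19 ± 0.22 (SD, n = 4 each). KRT26, a type I keratin of the inner root sheath, differed by -0.15 ± 0.12 (SE). KRT23, a type I epithelial keratin, averaged 5.81 ± 0.14 on the vehicle arrays and 5.81 ± 0.07 on the doxycycline arrays (SD, n = 4 each). The mucosal keratins KRT4 and KRT13 averaged 4.82 ± 0.09 and 4.91 ± 0.24 on the vehicle arrays, against 4.87 ± 0.15 and 5.03 ± 0.09 on the doxycycline arrays (SD, n = 4 each). KRT76, a keratin of the palate and gum, was at 6.13, 6.42, 6.01 and 6.18 with vehicle and at 6.30, 6.18, 5.27 and 6.36 with doxycycline, so that 1 doxycycline array lay far below the other 7.

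Of the 10 type I hair keratins 7 had a difference above 0 and 3 below, and without vehicle replicate 1 the counts were 4 and 6. KRT37 was at 5.34, 6.39, 6.38 and 6.40 with vehicle and at 6.37, 6.08, 6.36 and 6.02 with doxycycline. The gap of vehicle replicate 1 to the mean of the other 7 arrays was -0.95, the farthest of any keratin, and the other 3 vehicle arrays were above all doxycycline arrays. Its difference was 0.08 with all arrays and -0.18 without vehicle replicate 1. KRT38, whose promoter is close to that of KRT37, was at 5.89, 6.18, 6.52 and 6.38 with vehicle and at 6.14, 5.89, 6.15 and 5.84 with doxycycline. Its difference was -0.24 ± 0.15 (SE; limma adjusted p = 0.987) with all arrays, -0.36 when vehicle replicate 1 was left out and -0.15 when vehicle replicate 3 was. KRT39, a hair cuticle keratin, was at 3.70, 4.07, 3.42 and 3.52 with vehicle and between 3.83 and 3.97 with doxycycline, a difference of 0.24 ± 0.15 (SE). Leaving out vehicle replicate 2 gave 0.38, and leaving out vehicle replicate 3 gave 0.16. KRT35, a keratin of the hair matrix, averaged 6.09 ± 0.26 on the vehicle arrays and 6.19 ± 0.06 on the doxycycline arrays (SD, n = 4 each).

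The 20 keratins outside the rule for named genes had differences from -0.07 (KRT36, a hair keratin) to 0.16 (KRT222), 13 of them above 0 and 7 below, and an SD over the 8 arrays of 0.10 to 0.31. Without vehicle replicate 1 the counts were 8 above and 12 below. The limma adjusted p was 0.987 for each keratin above that is given with a difference and its SE. KRT33A and KRT33B, like KRT37 and KRT38, are close relatives, and how far the probes of one read the other was not measured.

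**Figure D2:**
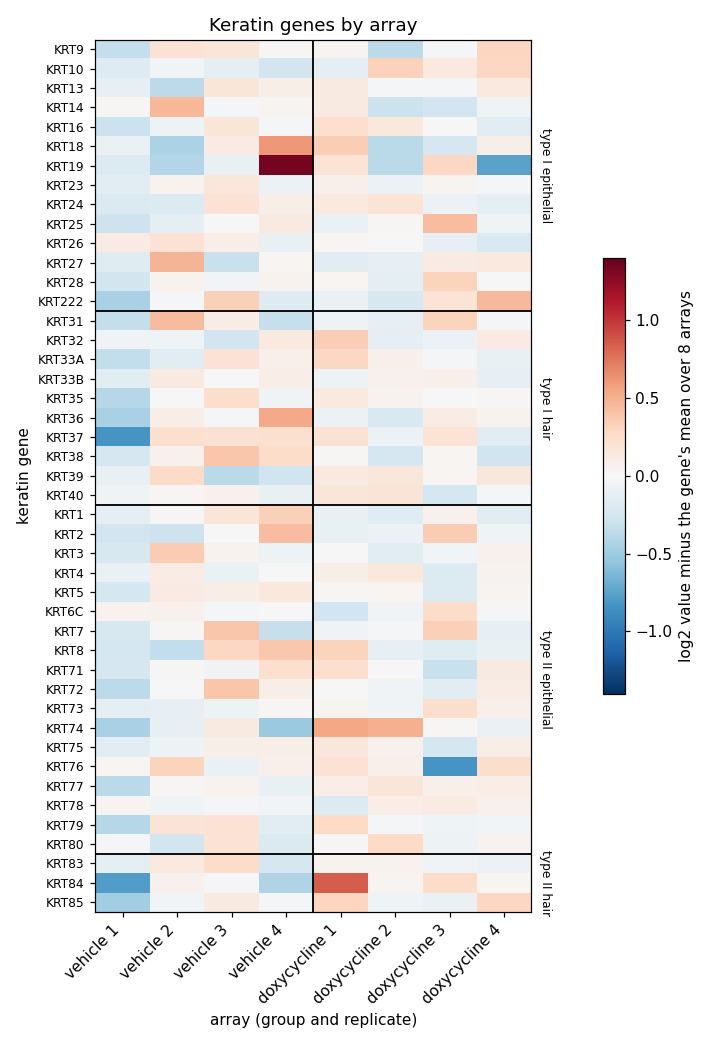
Log2 value of each keratin minus its mean over the 8 arrays (colour), with genes in rows by class and arrays in columns, the vertical line parting vehicle from doxycycline. The column of vehicle replicate 1 is mostly blue, and the darkest red cell is KRT19 in vehicle replicate 4, at 8.32.

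The 4 simple epithelium keratins had a median SD over the 8 arrays of 0.32, against 0.20 for all keratins and 0.21 for all genes. KRT19, a type I keratin of ducts and glands, was at 6.79, 6.57, 6.87 and 8.32 with vehicle and at 7.17, 6.60, 7.27 and 6.23 with doxycycline. Vehicle replicate 4 exceeded the other 7 arrays' mean by 1.53, and the SD over the 8 arrays, 0.64, was the largest of any keratin. The difference of -0.32 ± 0.35 (SE; limma adjusted p = 0.987) turned to 0.07 without that array and was -0.12 without doxycycline replicate 4. Without vehicle replicate 1 the KRT19 difference was -0.43. KRT18 was at 4.39, 4.04, 4.59 and 5.09 with vehicle and at 4.83, 4.10, 4.24 and 4.56 with doxycycline. KRT8 was at 7.51, 7.40, 8.04 and 8.13 with vehicle and at 8.07, 7.63, 7.57 and 7.64 with doxycycline. Vehicle replicate 4 was thus the highest array for KRT8, KRT18 and KRT19, whereas for KRT7, the type II keratin of ducts, it was the lowest, at 6.63 against 6.73 to 7.34 on the other 7. KRT8 and KRT18 have many processed pseudogenes, which the probes may read as well. Of 12 epithelial markers other than keratins, 8 were measured, and their mean level was 5.19 in vehicle replicate 4, within the range of the other 7 arrays (5.11 to 5.44). Of these, CDH1, the E-cadherin gene, was at 3.55 there, its highest of the 8 arrays, and EPCAM was at 4.15, its second lowest. The part of epithelial cells in the KRT19 value was not tested further.

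**Figure D3:**
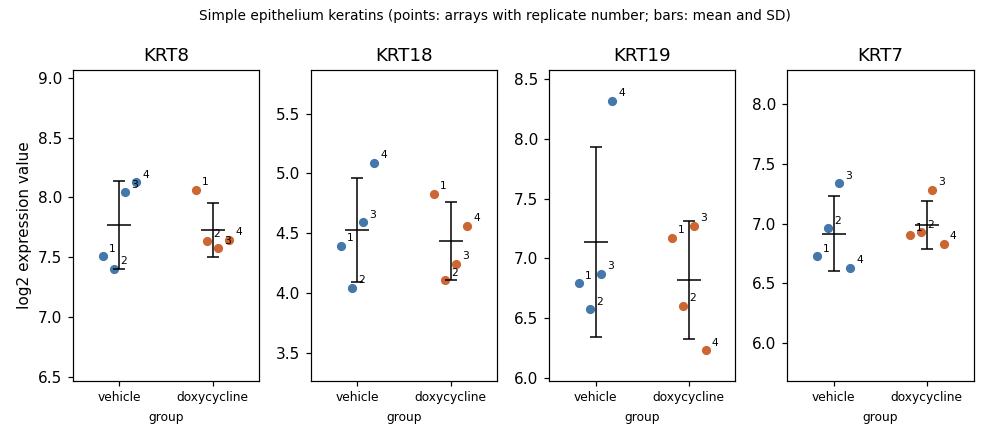
Log2 expression of KRT8, KRT18, KRT19 and KRT7 on each array (points, numbered by replicate) with group mean and SD (bars), on axes of equal span. Vehicle replicate 4 is the highest point for KRT8 (8.13), KRT18 (5.09) and KRT19 (8.32) and the lowest for KRT7 (6.63).

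Since keratins polymerize in pairs, 7 partner pairs were compared across the 8 arrays. Over the 8 arrays as they stand, KRT8 and KRT18 alone passed the threshold (Pearson r = 0.87, exact permutation p = 0.00491, adjusted over the 7 pairs 0.0344; Spearman rho = 0.90, exact permutation p = 0.00456, adjusted 0.0319). Their r was 0.87 after the group means were subtracted and 0.90 without vehicle replicate 1. Without vehicle replicate 4 and doxycycline replicate 1, the 2 arrays farthest from the KRT8 median, it was 0.68. With 7 arrays the adjusted exact permutation p was above 0.05 in 7 of 8 cases, at most 0.127, while r stayed between 0.82 and 0.91. KRT85 and KRT35, the pair of the hair matrix, had r = 0.81 (exact permutation p = 0.0242, adjusted 0.0846) and rho = 0.62 (exact permutation p = 0.115, adjusted 0.309). That relation rests on vehicle replicate 1, the lowest array for both genes: r was 0.42 without it and 0.30 without vehicle replicate 1 and doxycycline replicate 1. With group means subtracted, this pair had r = 0.79 (adjusted permutation p = 0.0242). Values centred within groups are not freely exchangeable between groups, so that p is not exact and is not read as passing. KRT5 and KRT14 had r = 0.39 and rho = 0.36 (exact permutation p = 0.337 and 0.389), and r was 0.19 without doxycycline replicate 3 and 0.23 without vehicle replicate 2. KRT1 and KRT10 had r = -0.58 and rho = -0.60 (exact permutation p = 0.128 and 0.132), and r was -0.30 with group means subtracted. KRT7 and KRT19, KRT4 and KRT13, and KRT71 and KRT25 had r of -0.22, -0.16 and -0.23 and rho of -0.07, -0.02 and -0.05, with exact permutation p between 0.608 and 0.977. For these 5 pairs the adjusted p of r was between 0.300 and 0.713.

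Vehicle replicate 1 was low for keratins as a group. It lay below the mean of the other 7 arrays for 40 of 45 keratins (88.9%), against 65.3% of all genes, and it was the lowest of the 8 arrays for 20 (44.4%), against 28.8%. The median gap was -0.26 log2 units over the keratins and -0.11 over all genes. All 13 hair keratins were below, and the 5 exceptions were KRT6C, KRT14, KRT26, KRT76 and KRT78, each by at most 0.13 above. This array was the highest for 0 keratins, against 15.2% of all genes. Genes whose products dress keratin filaments were low on it too. It lay below the mean of the other 7 arrays for 77 of 85 keratin-associated proteins (90.6%), which fill the hair shaft. The same held for 17 of 18 cornified envelope genes (94.4%), which form the protein shell of dead keratinocytes. It was the lowest of the 8 arrays for 34 and 9 of these. It lay below the mean of the others for 15 of 19 desmosome and linker genes (78.9%), where the median gap was -0.10, near that of all genes. No keratin was over 1 log2 unit from the mean of the other arrays there, against 3.56% of all genes. The mean level of the 7 markers of dedifferentiated melanoma was 7.14 on this array and 6.24 to 6.63 on the others. Of these, NT5E, a cell surface enzyme, was at 9.15 there and 4.61 to 6.33 elsewhere. The mean of the other 6 was 6.80 against 6.43 to 6.72. The list was split, since 3 of the 7 markers (42.9%) lay below the mean of the other 7 arrays, against 65.3% of all genes. The mean level of 9 melanocyte markers was 5.15 against 5.38 to 5.46, and that of 9 lymphocyte markers 5.73 against 5.79 to 5.98. Of the melanocyte markers, 6 (66.7%) lay below the mean of the other 7 arrays, near the 65.3% of all genes. The largest gaps were -1.28 for MLANA and -0.62 for PMEL, while TYR, TYRP1 and MITF lay above. All 8 skeletal muscle markers and all 6 adipocyte markers were below the mean of the other 7 arrays too, with median gaps of -0.53 and -0.31. Vehicle replicate 1 was the lowest of the 8 arrays for 2 markers of each list. The part of the nodes' cell makeup in the low keratin values was not tested.

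**Figure D4:**
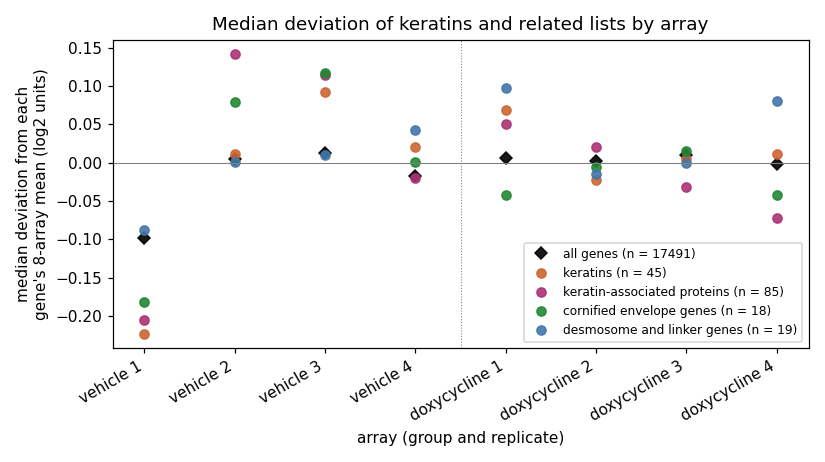
Median deviation of each gene from its own 8-array mean (y axis, log2 units), by array, for all genes (diamonds), keratins and 3 related lists (circles). In vehicle replicate 1 the keratins are at -0.22 and all genes at -0.10, and the keratins lie between -0.02 and 0.09 on the other 7 arrays.

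None of the lists of keratin partners held a gene past the threshold in the group comparison. Of the 19 desmosome and linker genes, 13 had a difference above 0 and 6 below, with a median of 0.07, and 10 and 9 without vehicle replicate 1. DSP, which ties keratin filaments to desmosomes, was at 4.43, 4.79, 4.85 and 4.59 with vehicle and at 4.16, 4.50, 4.19 and 4.65 with doxycycline, with overlapping groups. Of the 18 cornified envelope genes 9 were above 0 and 9 below, and of the 85 keratin-associated proteins 41 above and 44 below, with medians of -0.01 for both. Without vehicle replicate 1 the counts were 6 above and 12 below for the first and 24 and 61 for the second, with medians of -0.11 and -0.09. KRTAP5-6 was the only one of the 85 whose groups did not overlap, at 6.24 to 6.49 with vehicle and 6.51 to 6.82 with doxycycline, which is 1 of 85 against 1.76% of all genes. Of 13 epithelial transcription factors 6 were above 0 and 7 below, and 5 and 8 without that array. HOXC13, a driver of hair keratin genes, was at 4.01, 4.42, 4.58 and 4.45 with vehicle and at 4.47, 4.42, 4.96 and 4.58 with doxycycline. ZNF750, a factor of epidermal differentiation, differed by -0.28 ± 0.21 (SE).

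Of 14 other intermediate filament genes, 6 were above 0 and 8 below, and 8 and 6 without vehicle replicate 1. DES, the muscle filament desmin, was at 6.42, 7.16, 7.04 and 6.55 with vehicle and at 7.35, 7.59, 7.57 and 7.08 with doxycycline, a difference of 0.61 ± 0.19 (SE; limma adjusted p = 0.987). SYNM, synemin, which binds desmin, was at 7.96 to 8.15 with vehicle and 8.23 to 8.72 with doxycycline (limma adjusted p = 0.987). Its groups did not overlap, which is 1 of the 14 genes, against 1.76% of all genes with doxycycline higher. The 8 skeletal muscle markers all had a difference above 0, with and without vehicle replicate 1. Their mean level was 5.43 to 6.08 with vehicle and 5.61 to 6.61 with doxycycline. Doxycycline replicate 1, the highest array for KRT84 and KRT74, was also the highest here, but it was the lowest doxycycline array for KRT10, at 3.79. Vehicle replicate 4, the highest vehicle array for the muscle markers, was the lowest of the 8 arrays for KRT74, at 4.13. KRT84 was at 3.85 there, and only vehicle replicate 1 was lower. The 6 adipocyte markers, 5 of them with a difference above 0, had mean levels of 4.99 to 5.30 with vehicle and 5.39 to 5.68 with doxycycline. The part of muscle and fat tissue in the keratin values was not tested. In a whole node, fewer cells of a type and less RNA per cell cannot be told apart.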

How the data were processed

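Per the submitters' processing notes, the authors deposited RMA output, read here as log2 expression, with a single value for every probe set on every array. Neither the RMA version nor a genome build is given in the sources used here. The 18565 probe sets comprised 17509 with 1 symbol in the platform annotation, 0 with several and 1056 with none. The probe set with the highest mean stood for each of 16 genes with several, which left 17491 genes. All 45 keratin identifiers matched RefSeq.

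Differences are doxycycline minus vehicle, fitted over all 17491 genes by lmFit and eBayes of limma 3.58.1 (R 4.3.3). The model held the group only, tests were two-sided, and p-values were adjusted by Benjamini-Hochberg with a threshold of 0.05. The fit was tested on simulated data with independent noise, no outlying array and set changes larger than any keratin difference here. Partner pairs were tested with exact two-sided permutation of array pairings, and 2 of 9 listed pairs had an unmeasured member. The labels do not say that each array is a separate mouse, so p-values measure the spread between these samples. Precision is limited by having 4 arrays per group.

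The members and lists were chosen with earlier results of these data known. Named keratins were the 3 with the highest mean in each class, the 5 per direction with the smallest p, those with separate groups, those over 1 log2 unit off in vehicle replicate 1, the 5 with the largest SD, and partner pairs. For other lists up to 2 genes per direction with the smallest p were eligible. MLANA, PMEL, TYR, TYRP1, MITF, SOX10, NT5E, CDH1 and EPCAM were named after their values were seen. So were KRT2, KRT6C, KRT33A, KRT33B, KRT36, KRT40, KRT73, KRT75, KRT78, KRT79 and KRT222. Alternatives were each array left out, a threshold of 0.1, array weights, averaged probe sets, a filter that dropped the dimmest 25% or 50%, a replicate block, and renormalization by array medians, by cyclic loess or by quantiles. Plots were drawn with matplotlib 3.10.9.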

Additional observations from a re-analysis of the deposited data

Results flagged for a closer look

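Of the 90 groups of 4 arrays formed by 45 keratins and 2 treatments, 8 held an array far from the other 3, its gap to the nearest being above Dixon's 95% critical value. Chance gives such a gap in about 1 of 20 groups, and here it was 8.89%. In vehicle replicate 1, KRT37 was at 5.34 with the nearest vehicle array at 6.38, and KRT5 at 6.82 with the nearest at 7.16. In vehicle replicate 2, KRT14 was at 5.75, above 5.32. In doxycycline replicate 1, KRT8 was at 8.07, above 7.64, and KRT79, a keratin of skin appendages, at 6.25, above 5.95. In doxycycline replicate 3, KRT76 was at 5.27, below 6.18, KRT5 at 6.87, below 7.08, and KRT2, a keratin of the upper epidermis, at 3.35, above 2.94. The KRT19 value of 8.32 in vehicle replicate 4, with the nearest vehicle array at 6.87, fell just short of the critical value and is not among them.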

How the results depend on the processing

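No keratin passed an adjusted p of 0.05 in limma under any alternative run, nor at 0.1. The count at an unadjusted p under 0.05, 3 with all arrays, was 0 without the dimmest 50% of genes and 0 to 4 with 1 array left out. The count with separate groups, 1 with all arrays, was 1 to 4 with 1 array left out. The median keratin difference was -0.03 without vehicle replicate 1 and 0.08 without vehicle replicate 4. With 1 array left out, the KRT19 difference ranged from -0.51 to 0.07; it turned to 0.0741 without vehicle replicate 4. Over the same 8 cases r ranged from 0.82 to 0.91 for KRT8 and KRT18, from 0.42 to 0.90 for KRT85 and KRT35, from 0.19 to 0.57 for KRT5 and KRT14, from -0.76 to -0.39 for KRT1 and KRT10, from -0.39 to 0.49 for KRT7 and KRT19, from -0.27 to 0.29 for KRT4 and KRT13 and from -0.67 to 0.64 for KRT71 and KRT25. After the group means were subtracted, r of KRT85 and KRT35 was 0.79, with an adjusted permutation p of 0.0242 that is not exact for centred values. Causes were not tested. With the replicate number as a block, 2 keratins had an unadjusted p under 0.05 and 0 passed the threshold. Same-numbered arrays deviated with correlations of -0.05, 0.15, 0.09 and 0.00293, so the numbers were not taken as pairs. With 4 arrays a group, the median standard error of 0.15 log2 units limits what can be seen, and signal over background was not analysed here.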
